A study of Mus musculus with 12 samples.

Results

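The genes described here make cholesterol and fatty acids, or set how much of them a cell keeps, and were measured in mouse splenic CD4+ T cells. They were chosen by name: a gene belonged if a probe set of the array carried 1 of 36 listed symbols. Of the 36, 34 were measured, by 37 probe sets, among 19752 genes with a probe set of their own symbol. Acat2 and Nr1h2 are not analysed here. The measured genes were 17 of 18 listed enzymes of sterol synthesis, all 6 genes of SREBP control and sterol transport, all 8 genes of fatty acid synthesis and 3 of 4 genes of the LXR and export arm. The choice was by name and set no threshold on measured values, but the list was made with earlier results of these data known.

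Cells build cholesterol from acetyl-CoA through the mevalonate pathway, which ends in squalene, and then fold squalene into a sterol ring that later enzymes trim. The SREBP transcription factors switch these enzymes on when membrane sterol runs low, and INSIG proteins hold SREBP and its escort SCAP in the endoplasmic reticulum when sterol is plentiful. LXR receptors answer to oxidised sterols and drive export, while the same SREBP and LXR circuits also reach the enzymes that make and desaturate fatty acids. T cells that have been activated to divide draw on both routes to build membrane.

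The cells came from male C57BL/6 mice aged 6 weeks, were taken from spleen by negative selection with EasySep, and were activated for 48 h with beads against CD3 and CD28. All 12 arrays share that activation, and no array of resting cells was part of the set. IL-12, at 100 U/ml, was then added for 2 h (5 arrays, with title numbers 2 to 6) or 8 h (4 arrays, numbers 2, 3, 5 and 6). Untreated cells were cultured for 2 h (2 arrays, numbers 7 and 8), and 1 array, number 5, is labelled baseline, with no culture time given. There was no untreated 8 h group. Between 2 h and 8 h, time under IL-12 and time in culture therefore cannot be told apart. IL-12 is the cytokine that directs activated CD4+ T cells toward the Th1 fate, and the comparisons ask how expression stood after 2 h and 8 h of it. The labels do not say whether arrays of a group came from separate mice or cultures, so the p-values reflect spread among these arrays, which may be technical.

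The title numbers fall into the runs 2 to 4 and 5 to 8, which the labels do not explain. The runs differed widely: across all genes 24.3% passed the test between them (adjusted p under 0.05; limma), after allowing for group. The baseline array is numbered 5, yet its median correlation over all genes was 0.9926 with the 5 arrays numbered 2 to 4 and 0.9893 with the 6 others numbered 5 to 8. T cell markers were high on every array, with a mean log2 intensity of at least 12.01 over 7 measured markers, including Cd4 at 11.51 to 12.07. Of these 7, 1 (Cd3d) was higher in the run 2 to 4 and 2 (Cd3e and Cd3g) were lower. Of 12 macrophage and monocyte markers, 9 were lower in the run 2 to 4 and none higher. Their mean was 6.66 to 6.76 on the 5 arrays numbered 2 to 4, 7.21 to 7.52 on the 6 treated and untreated arrays numbered 5 to 8, and 6.97 on the baseline array. Of 5 measured B cell markers 3 were higher in the run 2 to 4, of 2 CD8 markers 1 was lower, of 3 NK cell markers 1 was higher and 2 lower, and of 4 neutrophil markers 1 was higher. In such bulk samples, fewer cells of a type and less RNA per cell cannot be told apart. Values below are log2 intensities, on which a difference of 1 is a doubling, and levels are not compared between genes.

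The promoters of 26 of the 34 genes were found in RefSeq's table for the build GRCm38.p6, and 250 bases before the start of transcription were searched on both strands. The letters searched were TCACNCCAC, the core of a sterol response element, CCAAT, the box bound by NF-Y, GGGCGG, the box bound by Sp1, and CACGTG, the E-box. NF-Y and Sp1 are known partners of SREBP at sterol genes. CCAAT stood in 20 of the 26 promoters (76.9%) against 37.49% of 27025 genes in the table. GGGCGG stood in 22 (84.6%) against 35.36%, and CACGTG in 6 (23.1%) against 6.86%. TCACNCCAC was found only in Hmgcs1 among the 26, against 1.22% of genes. The 27025 genes were not limited to those measured here and were not matched to the 26 for expression level. These are matches of letters, and no binding was measured. The sequences that follow run 5′ to 3′ on the gene's strand and end at the base before the start, with the first 3 motifs in capitals in either orientation (CCAAT reads ATTGG, and GGGCGG reads CCGCCC, on the other strand). Hmgcs1 at chr13:119690101-119690350 (+ strand), Msmo1 at chr8:64733579-64733828 (- strand), Hsd17b7 at chr1:169969206-169969455 (- strand) and Lss at chr10:76531355-76531604 (+ strand) are sterol genes whose change from 2 h to 8 h of IL-12 differed between the runs of numbers. Fads2 at chr19:10101504-10101753 (- strand) is shown beside them because it fell from 2 h to 8 h in both runs.
Hmgcs1: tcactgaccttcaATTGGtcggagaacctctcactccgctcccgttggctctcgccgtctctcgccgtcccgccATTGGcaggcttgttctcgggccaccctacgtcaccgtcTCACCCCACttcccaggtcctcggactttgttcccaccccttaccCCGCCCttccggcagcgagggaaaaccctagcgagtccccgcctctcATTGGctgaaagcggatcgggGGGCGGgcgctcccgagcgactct
Msmo1: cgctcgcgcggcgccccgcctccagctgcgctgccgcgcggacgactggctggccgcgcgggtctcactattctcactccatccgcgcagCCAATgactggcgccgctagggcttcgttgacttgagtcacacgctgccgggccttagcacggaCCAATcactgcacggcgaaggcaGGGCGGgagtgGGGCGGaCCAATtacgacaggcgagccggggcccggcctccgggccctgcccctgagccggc
Hsd17b7: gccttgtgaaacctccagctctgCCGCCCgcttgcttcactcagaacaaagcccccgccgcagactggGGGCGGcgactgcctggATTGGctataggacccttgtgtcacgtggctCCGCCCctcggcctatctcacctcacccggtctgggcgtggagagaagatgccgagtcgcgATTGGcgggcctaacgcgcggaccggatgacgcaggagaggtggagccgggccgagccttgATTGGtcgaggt
Lss: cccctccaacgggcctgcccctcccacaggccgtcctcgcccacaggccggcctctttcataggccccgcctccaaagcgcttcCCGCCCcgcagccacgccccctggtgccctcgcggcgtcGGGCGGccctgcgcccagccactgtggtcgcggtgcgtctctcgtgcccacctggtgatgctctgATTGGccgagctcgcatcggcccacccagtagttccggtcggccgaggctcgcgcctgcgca
Fads2: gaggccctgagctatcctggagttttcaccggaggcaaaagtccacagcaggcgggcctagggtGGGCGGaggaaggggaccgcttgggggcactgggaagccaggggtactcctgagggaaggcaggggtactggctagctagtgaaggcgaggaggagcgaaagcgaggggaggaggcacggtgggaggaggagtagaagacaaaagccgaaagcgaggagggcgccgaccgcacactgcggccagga
Hmgcs1 holds 1 sterol response core, 137 bases before the start, with 3 CCAAT and 2 GGGCGG boxes. Msmo1 holds 3 and 2 of these boxes, Hsd17b7 3 and 3, and Lss 1 and 2, while Fads2 has 1 GGGCGG box and no CCAAT in this window. CCAAT stood in all 7 promoters found among the 9 genes whose change with time differed between the runs. It also stood in Mvk, Mvd, Idi1, Nsdhl, Fasn and Mylip, whose difference between the runs did not pass (limma). Elovl6, which fell in both runs, holds neither box, and the promoter of Scd1 was not found. A link between these letters and the changes was not tested.

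Between 2 h and 8 h of IL-12, 9 of the 34 genes passed the test, 6 higher and 3 lower at 8 h. Across all genes 12.6% passed, 6.27% higher and 6.36% lower. The 6 that rose were Dhcr7, Sqle, Mvk, Fdft1 and Msmo1 of sterol synthesis, and Mylip, an LXR target. The 3 that fell were the desaturases Scd1 and Fads2 and the elongase Elovl6, all of fatty acid synthesis. The calls of Mvk, Fdft1 and Msmo1 were lost on leaving out single IL-12 arrays; without the 8 h array numbered 2 their adjusted p were 0.138, 0.135 and 0.188. The same happened without the 2 h array numbered 2 or 4 or the 8 h array numbered 3 for all 3 genes, and without the 2 h arrays numbered 3 (Mvk and Msmo1) or 6 (Mvk) or the 8 h array numbered 5 (Fdft1). The median log2 difference was 0.134 over the 34 genes and 0.186 over the 17 sterol enzymes, against -0.009 over all genes. These values come from a fit that allows each run its own level and assumes an equal change with time in both. With the title number as a replicate block instead, 5 genes passed, 2 higher and 3 lower, and of all genes 1246 in place of 2496; that fit drops the IL-12 2 h array numbered 4, which has no 8 h partner. The assumption of an equal change was then tested, and 8 of the 17 sterol enzymes did not meet it.

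Hmgcs1, which makes the HMG-CoA that feeds the mevalonate pathway, shows the pattern. Its log2 intensity was 10.04, 9.94 and 9.96 on the IL-12 2 h arrays numbered 2, 3 and 4, and 10.74 and 11.03 on those numbered 5 and 6. After 8 h it was 11.07 and 10.87 on the arrays numbered 2 and 3, and 10.90 and 10.75 on those numbered 5 and 6. The untreated arrays read 10.81 and 11.12, and the baseline array 11.12. The 3 IL-12 2 h arrays numbered 2 to 4 were thus the lowest of all 12, and the other 9 overlapped whatever their group. Within the run 2 to 4, Hmgcs1 was 1.99-fold higher at 8 h than at 2 h (log2 difference 0.99 ± 0.11 SE, adjusted p = 5.46e-05). Within the run 5 to 8 the log2 difference was -0.06. The difference between these changes was 1.05 ± 0.14 (SE; adjusted p = 0.00272).

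**Figure D1:**
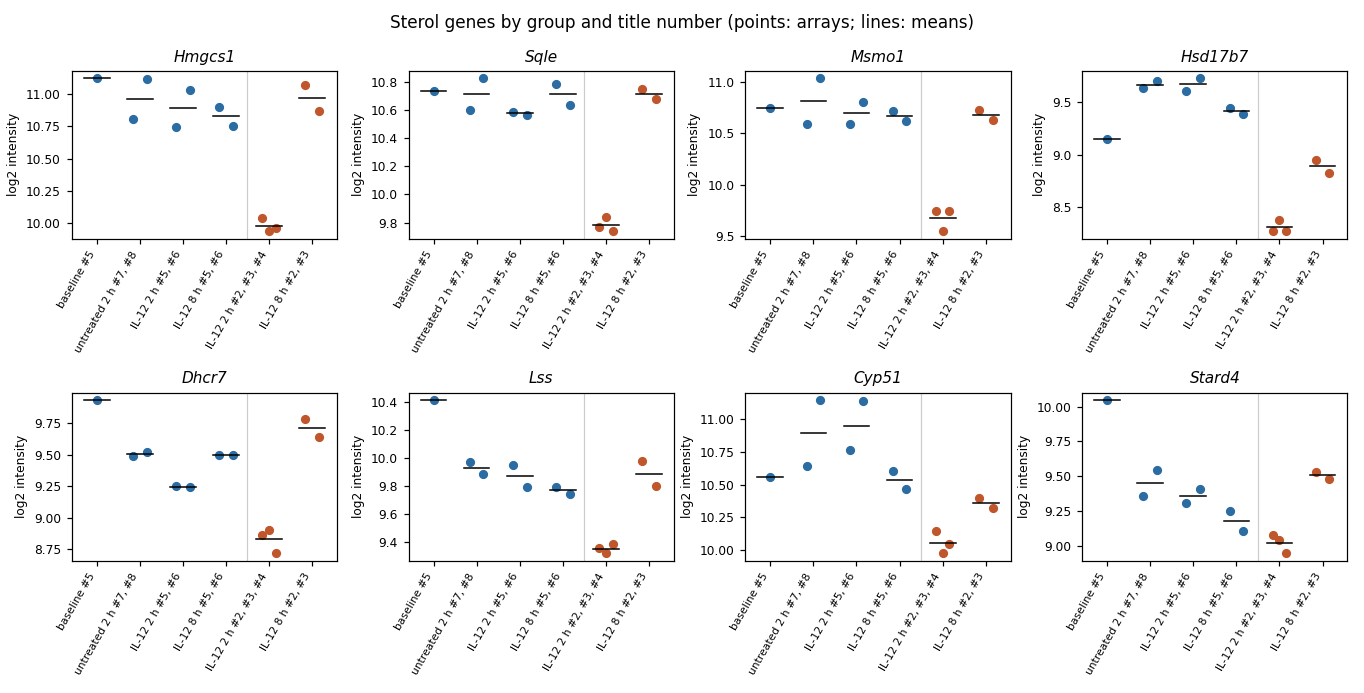
Log2 intensity (y axis) of 7 sterol synthesis genes and Stard4 on each of the 12 arrays, by group and title number (x axis). Points are arrays, lines are means, blue marks numbers 5 to 8 and orange numbers 2 to 4. The 3 orange IL-12 2 h arrays lie below the other 9 in every panel, for Hmgcs1 at 9.94 to 10.04.

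The change from 2 h to 8 h differed between the runs of numbers for 9 of 34 genes, each time with the larger rise in the run 2 to 4, against 1.96% of all genes (0.972% in that direction). Of the 9, 8 were among the 17 sterol enzymes and the other was Stard4, a carrier of cholesterol between membranes. No gene of fatty acid synthesis and none of the LXR arm passed (limma; 3 of 8 and 0 of 3 with an unadjusted p under 0.05). Without the IL-12 8 h array numbered 2, or without that numbered 6, 4 genes still passed: Hmgcs1, Sqle, Msmo1 and Hsd17b7. Lss was also lost without the 2 h array numbered 3, Dhcr7 without that numbered 4, and Cyp51 and Sc5d without any of several single arrays. The median difference was 0.258 over the 34 genes and 0.548 over the sterol enzymes, against -0.012 over all genes.

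Within the run 2 to 4, 14 genes rose and 3 fell from 2 h to 8 h, against 11.7% of all genes (6.05% higher and 5.67% lower). Of the 17 sterol enzymes 9 rose, and all 17 differences were above 0, with a median of 0.304. Within the run 5 to 8, 1 gene rose and 3 fell, against 5.61% of all genes (2.03% higher and 3.58% lower). There none of the 17 sterol enzymes passed (limma), 6 had an unadjusted p under 0.05, and the median was -0.026. The rises within the run 2 to 4 and the differences between the runs rest on the same 3 low arrays, which the change within the run 5 to 8 does not use. Their values are described by step of the pathway below.

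In the early, mevalonate part of the pathway the genes divided. Mvk, the mevalonate kinase, read 8.88, 8.79 and 8.79 at 2 h in the run 2 to 4 and 9.18 and 9.05 at 2 h in the run 5 to 8. At 8 h it read 9.22, 9.08, 9.25 and 9.20 on the arrays numbered 2, 3, 5 and 6. It rose within the run 2 to 4 (log2 difference 0.33 ± 0.08 SE, adjusted p = 0.0123), and the difference between runs did not pass (0.23 ± 0.12, adjusted p = 0.409). Idi1, which isomerises the isoprene unit, read 10.65, 10.51 and 10.61 on the 3 low arrays and 11.18 and 11.94 at 2 h in the other run. After 8 h Idi1 read 10.91 and 10.83 in the run 2 to 4 and 11.14 and 10.71 in the run 5 to 8. Its changes with time were thus of opposite sign, 0.28 and -0.64, yet the wide spread of the gene left their difference short of the threshold (0.92 ± 0.26, adjusted p = 0.103). A second Idi1 probe set gave 0.87 ± 0.26.

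Pmvk and Fdps, the phosphomevalonate kinase and the farnesyl diphosphate synthase, ran the other way. Fdps read 10.96 to 11.05 on the IL-12 2 h arrays numbered 2 to 4 and 10.76 and 10.76 on those numbered 5 and 6. After 8 h Fdps read 11.04 and 11.01 in the run 2 to 4 and 10.72 and 10.59 in the run 5 to 8. It was higher in the run 2 to 4 at both times (0.24 ± 0.08 SE at 2 h, adjusted p = 0.0364, and 0.37 ± 0.08 at 8 h, adjusted p = 0.0102). Pmvk was higher in that run at 2 h by 0.39 ± 0.11 (adjusted p = 0.0205). Mvd, the decarboxylase between them, read 8.39 to 8.52 on the 3 low arrays and 8.52 to 8.91 on the 4 arrays at 8 h, and passed in neither run. Low values on the 3 arrays were therefore not shared by every step.

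Squalene synthesis and its closure into a ring showed the pattern in Sqle and Lss. Sqle, the squalene epoxidase, read 9.77, 9.84 and 9.74 on the IL-12 2 h arrays numbered 2 to 4, and 10.58 and 10.57 on those numbered 5 and 6. At 8 h all 4 arrays stood together, at 10.75, 10.67, 10.78 and 10.64 for numbers 2, 3, 5 and 6, beside 10.60 and 10.82 untreated and 10.73 at baseline. The rise within the run 2 to 4 was 1.90-fold (0.93 ± 0.08 SE, adjusted p = 8.76e-06), and within the run 5 to 8 the difference was 0.13 ± 0.09 (adjusted p = 0.499). The difference between the runs' changes was 0.79 ± 0.11 (adjusted p = 0.00311).

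Lss, the cyclase that forms lanosterol, read 9.35, 9.32 and 9.38 on the 3 low arrays and 9.74 to 10.41 on the other 9. It rose within the run 2 to 4 by 0.53 ± 0.08 (SE; adjusted p = 0.000647), with a difference of -0.10 in the run 5 to 8. Fdft1, the squalene synthase, read 10.96, 11.15 and 10.86 on the same arrays and 11.37 to 11.74 on the others. It rose by 0.41 ± 0.09 within the run 2 to 4 (adjusted p = 0.0078), and the difference between runs was 0.31 ± 0.13 (adjusted p = 0.311). A second Fdft1 probe set gave a difference between runs of 0.44 ± 0.12. No group or run overlapped the 3 low arrays for either gene.

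Among the enzymes that trim the sterol ring, 5 had a change with time that differed between the runs. Msmo1, the C-4 methyl oxidase, read 9.75, 9.55 and 9.74 on the 3 low arrays and 10.59 and 10.80 on the other IL-12 2 h arrays. After 8 h Msmo1 read 10.73, 10.63, 10.72 and 10.62 for numbers 2, 3, 5 and 6, and the untreated and baseline arrays read 10.59, 11.03 and 10.75. Within the run 2 to 4 it rose by 1.00 ± 0.12 (SE; adjusted p = 9.5e-05), and in the run 5 to 8 the difference was -0.03. The difference between runs was 1.03 ± 0.14 (adjusted p = 0.0022), the smallest adjusted p among the 34 genes.

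Hsd17b7, the 3-ketosteroid reductase of the same demethylation step, read 8.27, 8.38 and 8.28 on the 3 low arrays and 9.61 and 9.73 on the other IL-12 2 h arrays. At 2 h it was 2.57-fold lower in the run 2 to 4 (log2 difference -1.36 ± 0.08 SE, adjusted p = 4.5e-07). After 8 h Hsd17b7 read 8.95 and 8.83 in the run 2 to 4 and 9.44 and 9.39 in the run 5 to 8, and so stayed lower in the run 2 to 4 by 0.53 (log2 difference -0.53 ± 0.08, adjusted p = 0.00123). The 8 h arrays of the run 2 to 4 thus did not reach those of the other run, unlike for Hmgcs1, Sqle, Lss and Msmo1. Fdft1 also lay lower there at 8 h, at 11.43 and 11.37 against 11.69 and 11.56, but this did not pass (-0.23 ± 0.10, adjusted p = 0.156). For Hsd17b7 the baseline array, at 9.15, lay between the runs, below both untreated arrays at 9.64 and 9.70.

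Cyp51, the lanosterol demethylase, read 10.14, 9.98 and 10.05 on the 3 low arrays and 10.76 and 11.14 on the other IL-12 2 h arrays. At 8 h it read 10.40 and 10.32 in the run 2 to 4 and 10.60 and 10.47 in the run 5 to 8. Neither change with time passed alone (0.30 ± 0.14 SE, adjusted p = 0.196, and -0.41 ± 0.15, adjusted p = 0.132), but their difference did (0.72 ± 0.15, adjusted p = 0.0332). Sc5d, the C-5 desaturase, had 10.63, 10.57 and 10.63 on the 3 low arrays against 10.76 to 11.16 on the other 9. Its difference between runs was 0.55 ± 0.11 (adjusted p = 0.0279). For Cyp51 and Sc5d the gap between runs came from both sides, with a positive difference in the run 2 to 4 and a negative one in the run 5 to 8. The same signs held for Hsd17b7 (0.58 and -0.25) and Stard4 (0.49 and -0.18). In the run 5 to 8, Hmgcs1, Lss and Msmo1 were slightly below 0 (-0.06, -0.10 and -0.03), and Sqle and Dhcr7 above it (0.13 and 0.25). None of these differences in the run 5 to 8 passed (limma).

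Dhcr7, which makes cholesterol in the last step, was the sterol enzyme with the smallest adjusted p for 8 h against 2 h across both runs. It read 8.86, 8.90 and 8.72 on the IL-12 2 h arrays numbered 2 to 4, 9.25 and 9.24 on those numbered 5 and 6, and 9.78, 9.64, 9.50 and 9.50 at 8 h for numbers 2, 3, 5 and 6. All 4 arrays at 8 h lay above all 5 at 2 h. Across both runs it was 1.51-fold higher at 8 h (0.60 ± 0.10 SE, adjusted p = 0.00154). Within the run 2 to 4 the rise was 1.84-fold (0.88 ± 0.08, adjusted p = 7.48e-06). In the run 5 to 8 the difference was 0.25 ± 0.09, with an adjusted p of 0.108, and the difference between the runs' changes passed (0.63 ± 0.12, adjusted p = 0.0174). The untreated arrays read 9.49 and 9.52, level with the 8 h arrays numbered 5 and 6.

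For the remaining trimming enzymes no change with time passed in either run. Nsdhl, the C-4 decarboxylating dehydrogenase, read 10.57, 10.39 and 10.38 on the 3 low arrays and 10.60 to 11.03 on the other 9, and its difference between runs was 0.25 ± 0.13 (SE; adjusted p = 0.403). Tm7sf2, a C-14 sterol reductase, lay between 7.77 and 8.20 on all 12 arrays, and Ebp, the isomerase that shifts the ring's double bond, between 9.49 and 10.07.

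**Figure D2:**
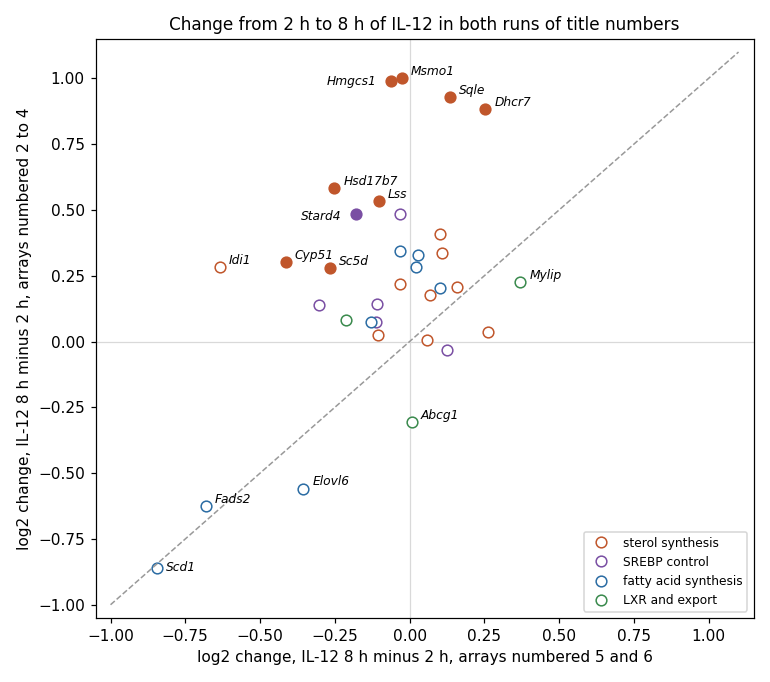
Change in log2 intensity from 2 h to 8 h of IL-12 for the 34 genes, within the arrays numbered 5 and 6 (x axis) and within those numbered 2 to 4 (y axis). Colour gives the role, filled circles have an adjusted p under 0.05 for the difference between the runs, and the dashed line marks an equal change. The 9 filled genes lie above the line, while Scd1, Fads2 and Elovl6 are negative on both axes.

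Counted the other way, at 2 h of IL-12 19 of the 34 genes were lower and 3 higher in the run 2 to 4 than in the run 5 to 8, against 20.7% of all genes (11.5% lower and 9.14% higher). Of the sterol enzymes, 12 of 17 were lower and 2, Pmvk and Fdps, higher, with a median of -0.477 against 0.040 over all genes. At 8 h, 2 genes were higher and 3 lower, against 11.5% of all genes (5.03% higher and 6.5% lower), and the sterol median was 0.001. In 16 of the 34 genes, 12 of them sterol enzymes, the 3 IL-12 2 h arrays numbered 2 to 4 lay below all 9 others, which held for 5.42% of all genes. Only Elovl6 lay above all others on those arrays, against 4.2% of all genes. A single term for the run at both times called 4 genes higher and 13 lower in the run 2 to 4. The shares of all genes were 11.8% and 12.5%. A fit that also holds the mean of the macrophage markers called none of the 34 and 0 of all 19752 genes. Of the 34, 1 had an unadjusted p under 0.05 (limma). That mean itself nearly follows the run, so the fit has little power to estimate the run and cannot tell run and markers apart.

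The macrophage markers set the runs apart at both times. Their mean was 6.73 to 6.76 at 2 h and 6.66 to 6.68 at 8 h in the run 2 to 4, and 7.21 to 7.45 and 7.27 to 7.28 in the run 5 to 8. None of the 12 markers passed the test of a change with time that differed between runs (limma, 1 with an unadjusted p under 0.05). Nor did any of the 5 B cell or 2 CD8 markers (2 and 0 at that unadjusted level). Only 1.96% of all genes passed that test, so lists this short could hardly show a pass and decide nothing. Lyz2, the lysozyme gene among the macrophage markers, ranged from 6.66 to 9.93. The part of other cell types in the sterol values was not tested. With that mean in the fit, 6 genes passed between 8 h and 2 h in place of 9.

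Among the genes of SREBP control, Stard4 and Insig1 rose within the run 2 to 4, as 9 of the sterol enzymes did. Stard4 read 9.08, 9.04 and 8.95 on the IL-12 2 h arrays numbered 2 to 4 and 9.30 and 9.41 on those numbered 5 and 6. At 8 h it read 9.53 and 9.48 in the run 2 to 4 and 9.25 and 9.10 in the run 5 to 8, so that the order of the runs turned around between the times. It was lower in the run 2 to 4 at 2 h (-0.33 ± 0.08 SE, adjusted p = 0.0128) and higher at 8 h (0.33 ± 0.09, adjusted p = 0.033), a difference between changes of 0.66 ± 0.12 (adjusted p = 0.0119). Insig1, which retains SREBP and is itself an SREBP target, read 10.33, 10.23 and 10.38 on the 3 low arrays and 10.63 to 11.20 on the other 9. It rose within the run 2 to 4 (0.49 ± 0.11, adjusted p = 0.0123), and the difference between runs was 0.52 ± 0.14 (adjusted p = 0.0994).

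The regulators themselves had narrower ranges. Srebf2, whose product SREBP-2 drives sterol synthesis, read 10.90, 10.93 and 10.75 on the 3 low arrays and 11.32 and 11.08 on the other IL-12 2 h arrays, a difference of -0.34 ± 0.09 (SE; adjusted p = 0.022). Srebf1, whose product SREBP-1 leans toward fatty acid synthesis, ranged from 9.84 to 10.08 on all 12 arrays. Scap, the escort of SREBP, ranged from 10.65 to 11.03, and Insig2, the second retention protein, from 9.15 to 9.69. None of these 4 passed the test for time in either run or for a difference between the runs' changes (limma). At the unadjusted level Insig2 was below 0.05 in the run 5 to 8, with a difference of -0.30 ± 0.12. The difference between the runs' changes was 0.44 ± 0.13 for Insig2 (unadjusted p = 0.00493, adjusted p = 0.121) and 0.25 ± 0.12 for Srebf1 (unadjusted p = 0.0472, adjusted p = 0.336).

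Fatty acid synthesis held the 3 genes that changed in both runs. Scd1, the desaturase that makes monounsaturated fatty acids, read 9.93, 9.84 and 9.80 at 2 h and 9.33 and 8.66 at 8 h in the run 2 to 4. In the run 5 to 8 it read 10.55 and 10.35 at 2 h and 9.63 and 9.58 at 8 h. The untreated arrays read 10.63 and 10.49, and the baseline array 10.88. All 4 arrays at 8 h lay below all others. Scd1 was 1.81-fold lower at 8 h than at 2 h across both runs (-0.85 ± 0.11 SE, adjusted p = 0.00013), by 0.86 and 0.85 within the runs (differences of -0.86 ± 0.15, adjusted p = 0.0016, and -0.85 ± 0.16, adjusted p = 0.00746).

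Fads2, the first desaturase of polyunsaturated fatty acids, read 10.48, 10.53 and 10.49 at 2 h and 10.03 and 9.73 at 8 h in the run 2 to 4. In the run 5 to 8 it read 10.90 and 10.64 at 2 h and 10.09 and 10.09 at 8 h, beside 10.93 and 10.84 untreated and 11.18 at baseline. It was 1.57-fold lower at 8 h than at 2 h (-0.65 ± 0.07 SE, adjusted p = 4.98e-05), with -0.62 ± 0.10 (adjusted p = 0.000844) and -0.68 ± 0.11 (adjusted p = 0.00224) within the runs. Scd1 and Fads2 were the only 2 of the 34 genes for which the IL-12 8 h arrays lay below all 8 others (5.88%), which held for 0.997% of all genes.

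Elovl6, which lengthens palmitate to stearate, stood apart from the other genes on the 3 low arrays. It read 11.07, 11.12 and 11.05 there, above all 9 other arrays, and 10.55 and 10.61 on the IL-12 2 h arrays numbered 5 and 6. At 8 h it read 10.59 and 10.46 in the run 2 to 4 and 10.36 and 10.08 in the run 5 to 8, with 10.42 and 10.38 untreated and 10.94 at baseline. It was 1.38-fold lower at 8 h than at 2 h (-0.47 ± 0.07 SE, adjusted p = 0.000559), and the fall passed in both runs (-0.56 ± 0.09, adjusted p = 0.000836, and -0.36 ± 0.10, adjusted p = 0.0459). A fit of the arrays numbered 5 to 8 alone gave Elovl6 the same difference with an adjusted p of 0.173. At 2 h it was higher in the run 2 to 4 by 0.50 ± 0.09 (adjusted p = 0.00128).

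No fall with time passed for the other 5 genes of this role. Acaca and Acly, which supply malonyl-CoA and cytosolic acetyl-CoA, and Fads1, the second polyunsaturated desaturase, rose from 2 h to 8 h within the run 2 to 4. Fads1 read 9.98, 9.98 and 9.91 on the 3 low arrays and 10.26 or more on the other 9, and rose by 0.34 ± 0.09 (SE; adjusted p = 0.0236). Acaca rose by 0.33 ± 0.08 (adjusted p = 0.0187) and Acly by 0.28 ± 0.08 (adjusted p = 0.0352), and in the run 5 to 8 these 3 genes had differences of 0.03, 0.02 and -0.03. A second Acaca probe set gave a difference between runs of 0.56 ± 0.12 (adjusted p = 0.0395 over all probe sets), where the one used gave 0.30 ± 0.12 (adjusted p = 0.274). Fasn, the fatty acid synthase, ranged from 11.46 to 11.85 on all 12 arrays, and Scd2, a second stearoyl desaturase, from 12.63 to 13.15, and neither passed in either run.

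**Figure D3:**
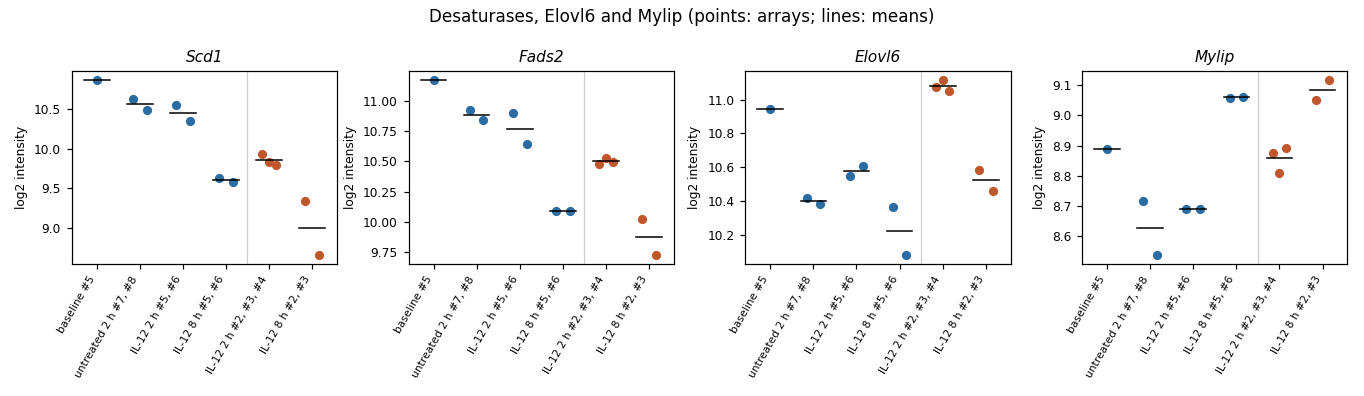
Log2 intensity (y axis) of Scd1, Fads2, Elovl6 and Mylip on each of the 12 arrays, by group and title number (x axis); points are arrays, lines are means, blue marks numbers 5 to 8 and orange numbers 2 to 4. The 4 IL-12 8 h arrays are the lowest for Scd1 (8.66 to 9.63) and Fads2, and the highest for Mylip (9.05 to 9.12).

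In the LXR arm, Mylip, a ubiquitin ligase that removes lipoprotein receptors, read 9.05, 9.12, 9.06 and 9.06 on the IL-12 8 h arrays numbered 2, 3, 5 and 6, above all 8 others. At 2 h it read 8.88, 8.81 and 8.89 in the run 2 to 4 and 8.69 and 8.69 in the run 5 to 8, beside 8.72 and 8.54 untreated and 8.89 at baseline. It was 1.22-fold higher at 8 h than at 2 h (0.29 ± 0.06 SE, adjusted p = 0.00462). Within the run 5 to 8 the rise was 0.37 ± 0.08 (adjusted p = 0.0188; 0.112 when those arrays were fitted alone), and within the run 2 to 4 the difference was 0.23 ± 0.07 (adjusted p = 0.0727).

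Neither exporter passed for time in either run. Abcg1, which passes cholesterol to high-density lipoprotein, read 9.62, 9.63 and 9.62 at 2 h and 9.52 and 9.11 at 8 h in the run 2 to 4, and 10.03 and 10 at 2 h and 9.87 and 10.18 at 8 h in the run 5 to 8. It was lower in the run 2 to 4 at 2 h (-0.39 ± 0.11 SE, adjusted p = 0.025) and at 8 h (-0.71 ± 0.12, adjusted p = 0.00233). Abca1, which passes cholesterol to lipid-poor apolipoprotein, lay between 7.41 and 7.93 on all 12 arrays and passed none of the comparisons.

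**Figure D4:**
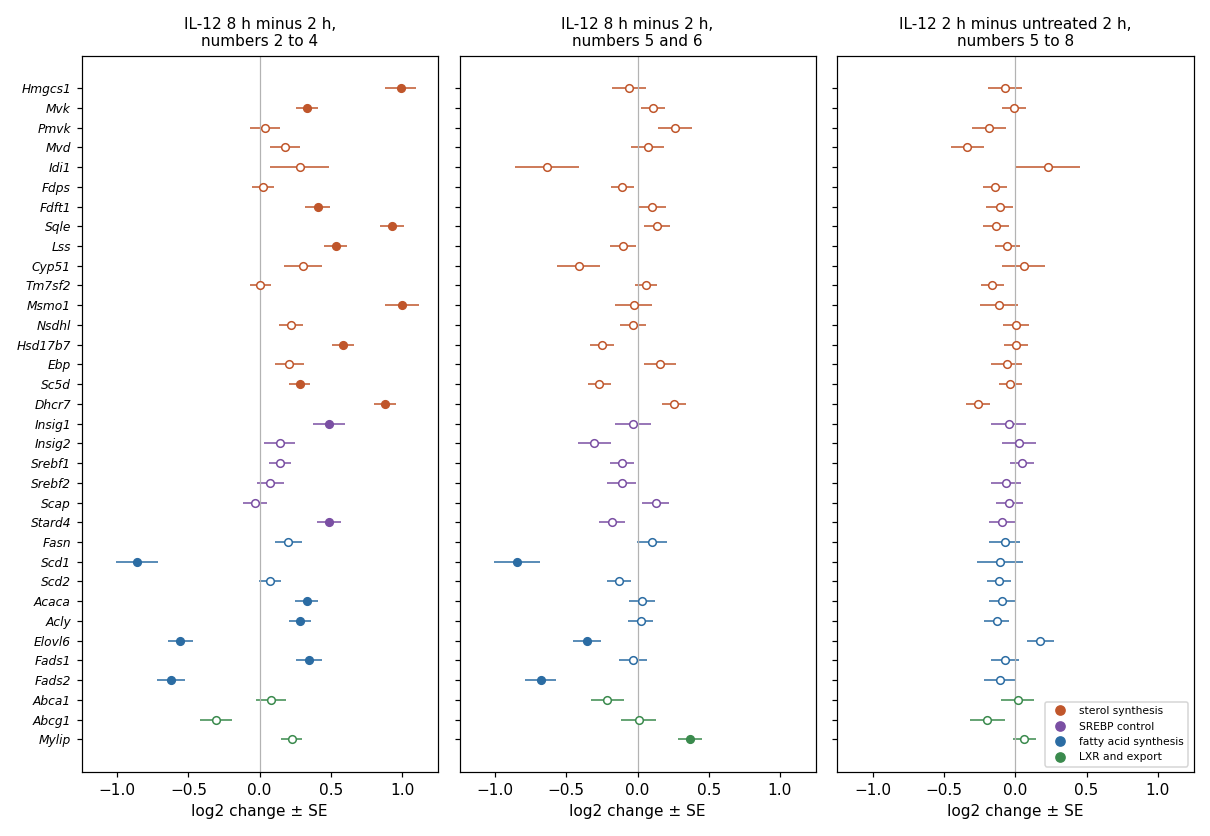
Change in log2 intensity (x axis, bars ± 1 SE) for each of the 34 genes (y axis), coloured by role, in 3 panels: 8 h minus 2 h of IL-12 in the numbers 2 to 4, the same in the numbers 5 and 6, and IL-12 minus untreated at 2 h in the numbers 5 to 8. Filled points have an adjusted p under 0.05: 14 rose and 3 fell in the first panel, 1 rose and 3 fell in the second, and none is filled in the third.

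Against untreated cells at the same 2 h, none of the 34 genes passed (limma; 0.0709% of all genes passed, all higher). Untreated arrays exist only with the numbers 7 and 8, so the values within the run 5 to 8 compare arrays of 1 run. There too none of the 34 passed, against 0.101% of all genes, 2 had an unadjusted p under 0.05, and the differences ran from -0.34 to 0.23 with a median of -0.072, against -0.005 over all genes. Hmgcs1 differed by -0.07, and Dhcr7 by -0.26 ± 0.09 (SE; adjusted p = 0.72). The fit over all 12 arrays gave a median of -0.143, with 32 of 34 differences below 0 and 5 at an unadjusted p under 0.05. The smallest adjusted p there was 0.738, for Mvd (-0.37 ± 0.11). That fit draws on the 3 low arrays as well.

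Between 8 h of IL-12 and untreated cells, 3 of the 34 genes passed, 1 higher and 2 lower, against 3.16% of all genes (1.04% higher and 2.13% lower). Scd1 was 1.95-fold lower (-0.96 ± 0.15 SE, adjusted p = 0.00201), and Fads2 1.71-fold lower (-0.78 ± 0.10, adjusted p = 0.00045). Mylip was 1.31-fold higher (0.39 ± 0.08, adjusted p = 0.0157), a call lost without the untreated array numbered 8 (adjusted p = 0.167) or the 8 h array numbered 5 (0.0583). Within the run 5 to 8 the same 3 genes passed, against 4.26% of all genes (1.56% higher and 2.7% lower), with -0.96 ± 0.16 for Scd1, -0.79 ± 0.11 for Fads2 and 0.43 ± 0.08 for Mylip. Mylip was lost when those arrays were fitted alone (0.43, adjusted p = 0.0743) and with the macrophage mean in the fit (0.46, adjusted p = 0.163). No sterol enzyme passed (limma); within that run 5 of the 17 had an unadjusted p under 0.05, and their median was -0.136. The untreated arrays were cultured for 2 h, so IL-12 and the longer culture cannot be told apart here, and this comparison shares its 8 h arrays with the one above.

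From baseline to 2 h without IL-12, 4 of the 34 genes fell and none rose, against 10.2% of all genes (3.96% lower and 6.28% higher). Pmvk was 1.66-fold lower in the untreated arrays, at 8.19 and 8.50 against 9.08 on the baseline array (-0.73 ± 0.15 SE, adjusted p = 0.00714). Fdps fell by 0.50 (-0.50 ± 0.11, adjusted p = 0.00721), Elovl6 by 0.54 (-0.54 ± 0.13, adjusted p = 0.0137) and Fads1 by 0.54 (-0.54 ± 0.15, adjusted p = 0.0339). The baseline array was the highest of the 12 for 18 of the 34 genes (52.9%), among them 9 of 17 sterol enzymes and 7 of 8 genes of fatty acid synthesis, against 12.6% of all genes. With 1 baseline array, its own spread is unknown and was taken from the other groups. If that array is placed with the numbers 2 to 4, which it resembles more, 1 gene passed, and without the untreated array numbered 8, 2 did, Elovl6 and Fads1 being lost (adjusted p = 0.0522 and 0.158). With a separate mean for each group and run, 1 gene was higher and 7 lower, against 7.69% and 5.09% of all genes. The macrophage marker mean was 6.97 at baseline and 7.40 and 7.52 in untreated cells, and with it in the fit none of the 34 and 22 of all 19752 genes passed (limma; 1 of the 34 with an unadjusted p under 0.05). The differences were then -0.76 for Pmvk, -0.66 for Elovl6, -0.36 for Fdps and -0.33 for Fads1. The marker mean also sets the baseline array apart from the untreated ones, which leaves such a fit little power for this comparison.

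Of 45 further genes of these pathways, listed by function, 41 were measured, and between 2 h and 8 h of IL-12 4 rose and 2 fell (14.6%, near the 12.6% of all genes). Acsl4, which activates arachidonate for use in lipids, fell by 0.59 (-0.59 ± 0.07 SE, adjusted p = 5.77e-05), and did so in both runs (-0.61 ± 0.09, adjusted p = 0.000555, and -0.57 ± 0.10, adjusted p = 0.00466). Dhdds, which extends isoprenoids toward dolichol, rose by 0.39 ± 0.06 (adjusted p = 0.000804). Hadhb and Cpt2, both of mitochondrial fatty acid oxidation, rose by 0.31 ± 0.06 (adjusted p = 0.00426) and 0.28 ± 0.06 (adjusted p = 0.00538). Of 10 oxidation genes 3 rose and none fell, against 6.27% and 6.36% of all genes, with a median of 0.153. Within the run 2 to 4, 3 of the 10, Hadhb and Cpt2 among them, rose. In the run 5 to 8 none of the 10 passed (limma, 3 with an unadjusted p under 0.05), with a median of 0.120. Within the run 2 to 4, 6 of the 41 rose and 2 fell (19.5% against 11.7% of all genes), and within the run 5 to 8, 1 rose and 2 fell (7.32% against 5.61%).

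Acss2, which makes acetyl-CoA from acetate and is known as an SREBP target, was the only gene of the 41 whose change with time differed between runs (0.69 ± 0.15 SE, adjusted p = 0.0309). That is 2.44% of the 41, near the 1.96% of all genes. Acss2 fell in the run 5 to 8 (-0.60 ± 0.12, adjusted p = 0.0106) and was lower in the run 2 to 4 at 2 h by 0.97 (-0.97 ± 0.11, adjusted p = 6.05e-05). Between 2 h of IL-12 and untreated cells none of the 41 passed, against 0.0709% of all genes (limma, 1 of the 41 with an unadjusted p under 0.05). Between 8 h of IL-12 and untreated cells Acsl4 and Rxra, the partner receptor of LXR, were lower (-0.47 ± 0.09, adjusted p = 0.012, and -0.42 ± 0.10, adjusted p = 0.0426). These are 4.88% of the 41, against 3.16% of all genes. Within the run 5 to 8, which holds the untreated arrays, Acsl4 passed (-0.46 ± 0.10, adjusted p = 0.0198) and Rxra did not. From baseline to untreated cells 4 rose, among them Rxra (1.07 ± 0.14, adjusted p = 0.000273) and Npc1, which exports cholesterol from lysosomes (0.82 ± 0.11, adjusted p = 0.000437), and 1 fell (5 of 41, against 10.2% of all genes). Between the runs of numbers 2 were higher and 12 lower in the run 2 to 4 (34.1% against 24.3%), with Elovl7, an elongase of very long chains, lower by 0.66 (-0.66 ± 0.06, adjusted p = 7.03e-06) and Npc1 by 0.61 (-0.61 ± 0.06, adjusted p = 1.43e-05).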

How the data were processed

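RNA was hybridised to 12 Affymetrix Mouse Gene 1.0 ST arrays, each of 1 sample. The values are linear intensity per probe set, deposited by the authors; per the submitters' processing notes they were made with Affymetrix Power Tools and RMA, with no version stated. The median intensity of an array was 160.6 to 167.3, and the number of arrays limits the precision (median SE 0.0689 for 8 h against 2 h, log2 scale). Here the log2 was taken. Of 24922 probe sets 21425 have 1 gene symbol, 1399 several and 2098 none in the platform annotation; the brightest of each symbol stood for its gene, with no filter on dim probe sets and no columns left aside. Groups came from the sample titles. limma 3.58.1 (R 4.3.3) fitted 4 group means and a term for the run of title numbers (7 residual degrees of freedom, 6.84 prior), or, for the difference of changes, time by run on the 9 IL-12 arrays. Changes within a run came from a separate mean for each group and run, chosen after seeing the data. P-values are two-sided and adjusted by Benjamini-Hochberg over all 19752 genes, with 0.05 as the threshold. The code was tested on simulated data. Figures used Python 3.11.15 and matplotlib 3.10.9.

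The 36 genes, the other lists, the named genes (all members, and at most 4 other pathway genes per comparison by p) and the markers were chosen with earlier results of these data known. Deviations from the group mean correlated at 0.30 to 0.52 between 2 h and 8 h arrays of the same title number, so the number was also fitted as a replicate block. They correlated at 0.41 to 0.50 between different numbers of the same run, and at -0.26 to 0.03 for the same number once the run was removed.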

Additional observations from a re-analysis of the deposited data

Results flagged for a closer look

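The change from 2 h to 8 h of IL-12 was tested for a difference between the runs of title numbers, and 9 of the 34 genes differed, always with the larger value in the run 2 to 4. The log2 difference was 1.05 for Hmgcs1, 1.03 for Msmo1, 0.835 for Hsd17b7, 0.794 for Sqle and 0.718 for Cyp51. It was 0.664 for Stard4, 0.638 for Lss, 0.629 for Dhcr7 and 0.548 for Sc5d. These 9 values rest on the same 9 IL-12 arrays. In 68 sets of 4 or 5 arrays, each 1 gene in 1 IL-12 group, no array stood far enough from the others to count as an outlier. Each set holds arrays of both runs. Where a gene split by run, as Hmgcs1 did at 2 h, a single array could hardly stand apart, so this absence decides nothing.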

How the results depend on the processing

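Between 8 h and 2 h of IL-12, 9 genes passed. The count was 4 without the term for the run, 2 from the arrays numbered 5 to 8 alone, 5 with the title number as a fixed replicate block (without the IL-12 2 h array numbered 4), and, with separate means, 17 within the run 2 to 4 and 4 within the run 5 to 8. Msmo1 turned to -0.0257 in both fits of the run 5 to 8. The fixed block was fitted for this comparison alone. As a random block it left 9 here, changed no other count by over 1.5 times, and gave 21 between the runs. Between untreated cells and baseline, 4 passed; it was 0 without the run term, 0 with the macrophage mean as a covariate, 7 from the arrays numbered 5 to 8, 8 with separate means and 1 with the baseline array placed with the numbers 2 to 4. Between the runs of numbers, 17 passed, 0 with the macrophage covariate, which turned Ebp to -0.0581, and 5 at 8 h alone, where Sqle was 0.00132 and Msmo1 0.00860. The macrophage mean nearly follows the run, so its fit has little power between the runs. The cause was not tested.

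Leaving out each array in turn gave 6 to 12 genes for 8 h against 2 h, 0 to 0 for IL-12 2 h against untreated, 2 to 3 for IL-12 8 h against untreated, 2 to 5 for untreated against baseline, 8 to 21 between the runs and 4 to 10 for the difference of changes. The last was 4 without the IL-12 8 h array numbered 2, which leaves a lone array in its group, and 4 without that numbered 6. Between the runs it was 8, 10 and 11 without the IL-12 2 h array numbered 4, 5 or 6. Scd1 and Fads2 passed at 8 h against 2 h under all 25 alternatives and at 8 h against untreated under all 23. Alternatives that only drop or move the baseline array are among these counts, though they cannot change either comparison. Hmgcs1, Sqle, Msmo1 and Hsd17b7 kept their difference between runs under all 12, Stard4 under 10, Lss and Dhcr7 under 9, Cyp51 under 6 and Sc5d under 5. Of 860 values for 42 results on single genes, 705 kept direction and call, 150 kept direction only and 5 reversed.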
